A study of Mus musculus with 107 samples.

Results

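Mlxipl, Pklr, Fasn, Acly and Srebf1 are 5 genes of fatty acid synthesis from sugar and of its control in the liver. They were taken by name from the probe annotation, and they are 5 of the 12315 genes measured here. Each was read by 1 probe, so no second probe checks a value, and each probe had a measured ratio on all 104 arrays. The samples were livers of female mice of an F2 generation, bred from the strains C57BL/6J and DBA/2J and all fed an atherogenic diet, with 1 array a mouse. Neither the age of the mice nor their time on the diet is given in the labels. Total RNA of each liver was set against a common pool that held RNA of every mouse in equal amounts. The labels speak of 111 mice. Of 107 arrays, those of mice 24, 55 and 91 were empty, which left 104 mice in 1 group with no treated or control arm.

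De novo lipogenesis turns carbon from glucose and fructose into fatty acids, and the liver is a main site of it. Mlxipl encodes ChREBP, a transcription factor that responds to sugar metabolites and binds paired E-boxes together with its partner Mlx. Srebf1 encodes SREBP-1, a factor of the insulin response whose transcription is driven by the sterol receptor LXR. Pklr encodes liver pyruvate kinase, the last enzyme of glycolysis. Acly encodes ATP citrate lyase, which makes cytosolic acetyl-CoA from citrate, and Fasn encodes the fatty acid synthase that joins such units into palmitate.

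The start-site sequences of the enzyme genes and of Srebf1 are shown because these genes are compared below with the transcripts of the factors known to bind there. They come from RefSeq (mouse build GRCm38.p6, strand of the gene, 5′ to 3′) and run from 250 bases before to 50 bases after an annotated start. Capitals mark matches, on either strand, to a carbohydrate response element (CANGNG and CNCNTG with 5 bases of any kind between them), an LXR element (GGTTA and CGG with 4 such bases between them), a sterol element spelled TCACNCCAC, an E-box spelled CACGTG and a CCAAT box. The Pklr window is chr3:89136373-89136672, plus strand. The Fasn window is chr11:120824498-120824797, the Acly window is chr11:100527951-100528250 and the Srebf1 window is chr11:60210422-60210721, all on the minus strand.
Pklr: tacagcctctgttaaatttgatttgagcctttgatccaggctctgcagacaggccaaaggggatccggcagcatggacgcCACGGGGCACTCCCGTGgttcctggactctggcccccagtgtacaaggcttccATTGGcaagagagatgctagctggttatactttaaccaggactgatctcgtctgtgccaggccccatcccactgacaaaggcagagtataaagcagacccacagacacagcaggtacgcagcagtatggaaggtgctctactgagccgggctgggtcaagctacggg
Fasn: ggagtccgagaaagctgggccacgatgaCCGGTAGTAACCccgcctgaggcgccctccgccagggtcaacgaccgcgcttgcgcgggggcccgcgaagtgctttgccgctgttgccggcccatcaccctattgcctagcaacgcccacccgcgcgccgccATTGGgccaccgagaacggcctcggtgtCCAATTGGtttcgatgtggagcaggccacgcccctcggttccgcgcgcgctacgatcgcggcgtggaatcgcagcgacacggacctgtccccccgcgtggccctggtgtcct
Acly: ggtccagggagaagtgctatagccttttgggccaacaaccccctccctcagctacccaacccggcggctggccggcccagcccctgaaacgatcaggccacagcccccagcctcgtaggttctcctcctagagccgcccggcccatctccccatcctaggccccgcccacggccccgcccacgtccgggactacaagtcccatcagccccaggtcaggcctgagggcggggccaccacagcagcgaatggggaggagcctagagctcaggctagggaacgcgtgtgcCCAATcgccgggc
Srebf1: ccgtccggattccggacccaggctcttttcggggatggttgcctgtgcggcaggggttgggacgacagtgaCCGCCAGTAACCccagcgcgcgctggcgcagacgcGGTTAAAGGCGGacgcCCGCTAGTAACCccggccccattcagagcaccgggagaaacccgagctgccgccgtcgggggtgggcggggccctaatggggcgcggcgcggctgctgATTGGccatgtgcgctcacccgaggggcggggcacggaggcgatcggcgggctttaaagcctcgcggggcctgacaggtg

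The Pklr window held the carbohydrate element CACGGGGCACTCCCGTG at -170 to -154 from the start, a spelling found in 0.557% of all 32851 windows of this length in the table. The Srebf1 window held 3 LXR elements, of which those at -179 to -168 and at -128 to -117 lie on the opposite strand, and the Fasn window held 1 at -222 to -211. That spelling was in 0.359% of windows. Overlapping CCAAT boxes stood in the Fasn window at -62 to -58 and -59 to -55, with another at -90 to -86, and the Acly window held 1 after its start. A CCAAT box is common and was in 37.4% of windows. The sterol element (1.24% of windows) and the E-box (7.15%) were in none of the 4 windows printed. The table gave 2 windows for Mlxipl, 2 for Pklr, 3 for Srebf1 and 1 each for Fasn and Acly. A second Pklr window held none of the motifs, and the other Srebf1 windows held no LXR element. The Mlxipl windows, not printed, held an E-box at -98 to -93 in one and a sterol element at -136 to -128 in the other. A match is a description of letters and shows no binding.

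Values below are log2 ratios of a mouse to the pool. The direction is likely but not settled, since the labels name the mouse first and give no formula. The log base was taken as 10 from the stops at exactly -2 and 2, and folds would shrink under another base, whereas correlations would stay the same. On 18 arrays over 700 values lay at these stops (946 to 1828 values on each), against at most 496 on each of the other 86, and correlations are given within both sets. The SD over probes of an array ran between 0.24 and 1.41, with a median of 0.43. Since no array was repeated, the spread between mice holds the noise of the arrays too, and precision is limited by how many there were. Of 8 listed hepatocyte markers 6 were measured, and since a ratio to a pool of livers gives no level, the tissue label could not be checked further. In whole liver, fewer cells of a type and less RNA per cell cannot be told apart.

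Srebf1 spread most of the 5 genes and Acly least. The middle of the scale, the 5th to 95th percentile of mice, covered a 3.48-fold range for Srebf1, 3.16-fold for Fasn, 2.90-fold for Pklr, 2.65-fold for Mlxipl and 1.68-fold for Acly. The median over all genes was 1.94-fold, so Acly alone was narrower than the typical gene. By SD the order was Srebf1 (0.56), Mlxipl (0.55), Fasn (0.52), Pklr (0.49) and Acly (0.24), against a median of 0.34 over all genes. Between 73.1% and 79.4% of genes had a lower SD than Pklr, Fasn, Mlxipl and Srebf1, and 28.4% had a lower SD than Acly.

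Mlxipl had its lowest log2 ratio at -2.69 (mouse 26), its median at -0.14 and its highest at 0.64 (mouse 28). Its mice formed a tail to one side: 5 mice lay more than 2-fold below the pool, none lay 2-fold above it, and the skewness was -1.63. Mouse 20 came second lowest, at -2.36. Srebf1 ran between -1.24 (mouse 8) and 1.42 (mouse 25) with a median of -0.02. Its high end rested on mice 25 and 51, both near 1.4, and 7 mice lay more than 2-fold below the pool.

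Pklr had its lowest log2 ratio at -1.43 (mouse 20), its median at -0.09 and its highest at 1.13 (mouse 87). Fasn ran between -1.75 (mouse 142) and 1.44 (mouse 51) with a median of -0.14, and mouse 25 was second highest at 1.34. Acly ran between -0.66 (mouse 43) and 0.77 (mouse 20) with a median of 0.01, and no mouse was 2-fold from the pool. The same few mice therefore stood at the ends of several of these genes, though not always on the same side. Mouse 20 is the clearest case: its log2 ratios were -2.36 for Mlxipl, -1.43 for Pklr and -1.01 for Srebf1, but 0.25 for Fasn and 0.77 for Acly. Mouse 25 had 1.42 for Srebf1, 1.34 for Fasn, 0.78 for Pklr and 0.68 for Acly, with Mlxipl at -0.23.

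**Figure D1:**
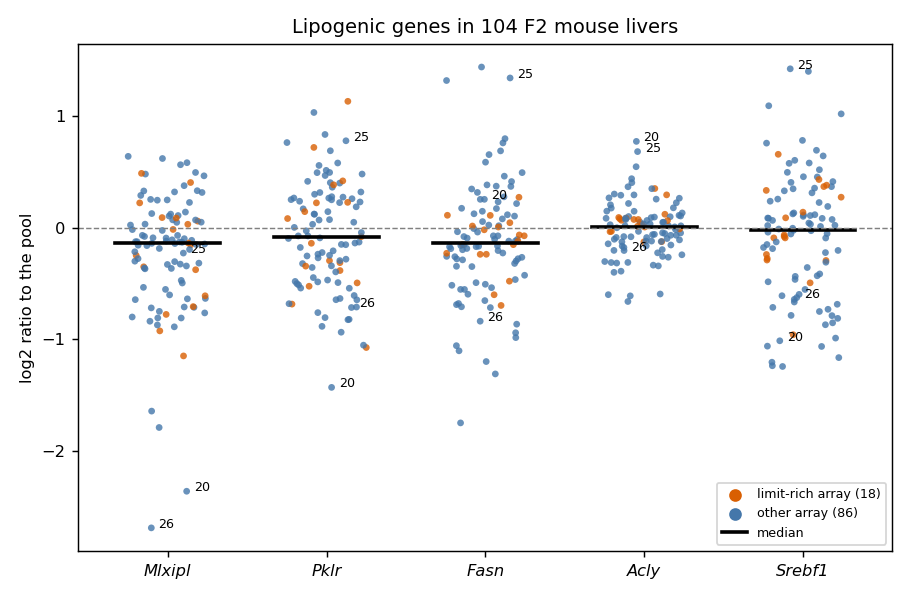
Log2 ratio of liver RNA to the pool (vertical axis) for each of the 5 genes in 104 mice, 1 point a mouse, with the median as a bar, the 18 arrays with many values at the limits in orange and mice 20, 25 and 26 numbered. Mlxipl has a tail down to -2.69, and Acly keeps within -0.66 and 0.77.

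The spread was not the same on both sets of arrays. The SD of Fasn was 0.56 on the 86 arrays and 0.25 on the 18, and that of Acly was 0.26 and 0.12. Srebf1 gave 0.59 and 0.39, Mlxipl 0.57 and 0.46, and Pklr 0.49 and 0.53. The wide values of Fasn, Acly and Srebf1 thus came from the 86 arrays, and whether the mice or the arrays differed was not tested. The first principal component of the whole table, which held 19.5% of its variance, correlated over mice at 0.67 with Mlxipl, 0.56 with Pklr, 0.43 with Srebf1, 0.18 with Fasn and 0.0633 with Acly.

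All 10 pairs of the 5 genes had a positive correlation over mice, and Fasn with Acly was the tightest (Pearson r = 0.66, Spearman rho = 0.55). Both had a two-sided permutation p of 1e-05, the smallest that 100000 permutations can give. Each was the first of 12314 genes in the fit on the other, with limma adjusted p-values of 4.08e-10 in the fit on Fasn and 1.59e-10 in the fit on Acly. Both lay below the pool in 39 mice and both above it in 26. Fasn varied more: its log2 ratio was higher by 1.39 ± 0.16 (SE) per unit of Acly. The correlation was 0.68 on the 86 arrays and 0.42 on the 18, and 0.64 without mice 142 and 51, the farthest from the median of Fasn.

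Srebf1 correlated with Mlxipl and with all 3 enzyme genes. Mlxipl with Srebf1 gave r = 0.56 and rho = 0.61 (permutation p = 1e-05 for both, limma adjusted p = 4.61e-09 in the fit on Mlxipl), and it was the one Mlxipl pair that was nearly as high on the 18 arrays (0.53) as on the 86 (0.57). Without mice 26 and 20, the farthest in Mlxipl, it was 0.57. Fasn with Srebf1 gave r = 0.52 and rho = 0.35 (permutation p = 1e-05 and 0.00033, limma adjusted p = 7.16e-06), and Srebf1 was the 14th of 12314 genes by r with Fasn. Mice 25 and 51 were the 2 highest in both genes, and r was 0.45 without mice 142 and 51. Acly with Srebf1 gave r = 0.41 and rho = 0.36 (permutation p = 1e-05 and 0.00016, limma adjusted p = 0.00478), but it was 0.46 on the 86 arrays and -0.38 on the 18. Without mice 20 and 25 it was 0.45.

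Mlxipl correlated with its textbook target Pklr at r = 0.49 and rho = 0.37 (permutation p = 1e-05 and 5e-05, limma adjusted p = 7.45e-07). That was 0.54 on the 86 arrays, 0.23 on the 18 and 0.43 without mice 26 and 20. With the first principal component removed it was 0.19 and did not pass (limma adjusted p = 0.142), whereas Mlxipl with Fasn was 0.42 and passed (adjusted p = 9.73e-05). With Fasn, Mlxipl gave r = 0.43 and rho = 0.48 (permutation p = 1e-05 for both, limma adjusted p = 2.77e-05), with 0.44 on the 86 arrays, 0.27 on the 18 and 0.49 without those 2 mice. These values are modest among all genes ranked by r with Mlxipl, where Pklr was 813th and Fasn 1162nd of 12314. The rank depends on the gene fitted: by r with Fasn, Mlxipl was 59th and Srebf1 14th. By r with Pklr, Mlxipl was 442nd. Mlxipl with Acly did not pass (r = 0.17, rho = 0.28, permutation p = 0.0834 and 0.00428, limma adjusted p = 0.149). Within the sets it was 0.18 on the 86 arrays and 0.0421 on the 18. This pair turned on mouse 20, chosen after its values were seen: without it r was 0.33 with a limma adjusted p of 0.00242, and without mice 26 and 20 it was also 0.33.

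Before removal of the first principal component, Pklr was related about equally to Fasn and Srebf1. Pklr with Fasn gave r = 0.44 and rho = 0.44 (permutation p = 1e-05 for both, limma adjusted p = 2.44e-05), 0.47 on the 86 arrays, 0.29 on the 18 and 0.50 without mice 20 and 87. Pklr with Srebf1 gave r = 0.44 and rho = 0.41 (permutation p = 1e-05 and 4e-05, limma adjusted p = 2.67e-05), 0.48 on the 86 arrays, 0.22 on the 18 and 0.44 without the same mice. Pklr with Acly was weaker, at r = 0.25 and rho = 0.31 (permutation p = 0.00952 and 0.00121), 0.26 on the 86 arrays, 0.24 on the 18 and 0.37 without those mice. It passed in the fit on Pklr (limma adjusted p = 0.0253) and not in the fit on Acly (adjusted p = 0.162). With the first principal component removed, neither Srebf1 (0.26, limma adjusted p = 0.058) nor Acly (0.27, adjusted p = 0.0598) passed in the fit on Pklr, whereas Fasn did (0.42, adjusted p = 0.0011). The permutation p-values of the 10 pairs are unadjusted, and the limma values are adjusted over all 12314 genes.

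**Figure D2:**
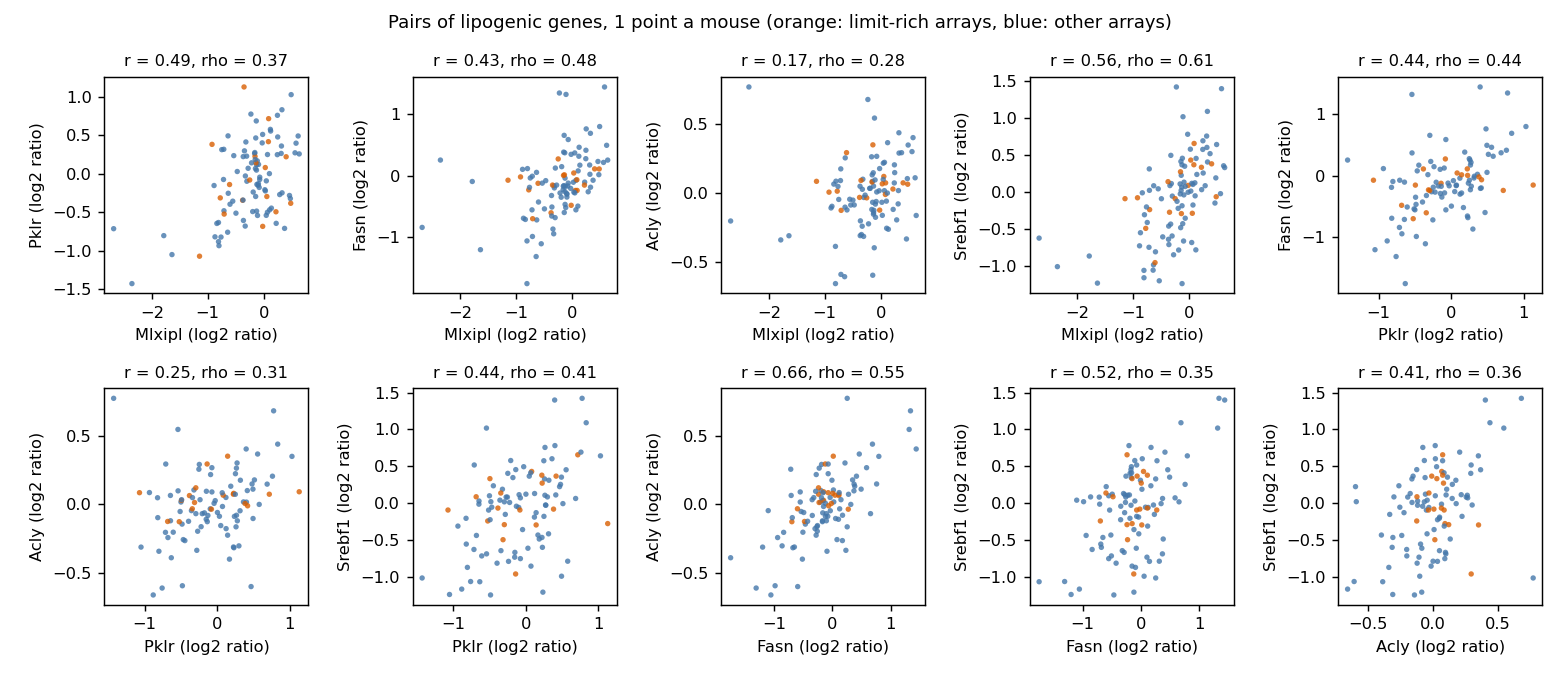
Log2 ratios of each of the 10 pairs of genes, 1 point a mouse, on the 86 arrays (blue) and the 18 with many values at the limits (orange), with Pearson r and Spearman rho above each panel. Fasn against Acly lies closest to a line (r = 0.66), and in Mlxipl against Acly mouse 20 stands alone at the top left.

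When Mlxipl and Srebf1 were fitted together, the enzyme genes passed for different ones. Pklr varied with Mlxipl at a given Srebf1 (partial r = 0.33, limma adjusted p = 0.0028) and did not pass for Srebf1 at a given Mlxipl (0.23, adjusted p = 0.274). Fasn passed for Srebf1 (partial r = 0.37, adjusted p = 0.0183) and not for Mlxipl (0.19, adjusted p = 0.113). Acly also passed for Srebf1 (0.39, adjusted p = 0.0144), with a partial r of -0.0796 on Mlxipl (adjusted p = 0.571). Whether a gene's 2 coefficients differ was not tested, and of all genes 37.7% passed for Mlxipl and 1.36% for Srebf1. These calls were not stable: with the first principal component removed, Pklr on Mlxipl fell to 0.0879 and Fasn on Mlxipl passed at 0.27, without mouse 20 Fasn on Mlxipl passed at 0.28, and on ranks over mice none of the 3 coefficients on Srebf1 passed.

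The genes differed widely in how much of the liver transcriptome varied with them. At a limma adjusted p under 0.05, 46.6% of 12314 genes varied with Mlxipl, 41.8% with Pklr, 27.6% with Srebf1, 8.95% with Fasn and 1.7% with Acly. Mlxipl and Pklr thus followed a variation shared by much of the table, and a call in their fits says little by itself. Acly sat at the other end, with 209 called genes, and 361 without mouse 20. At an unadjusted p under 0.05 the fit on Fasn held 2776 genes and that on Acly 1633.

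**Figure D3:**
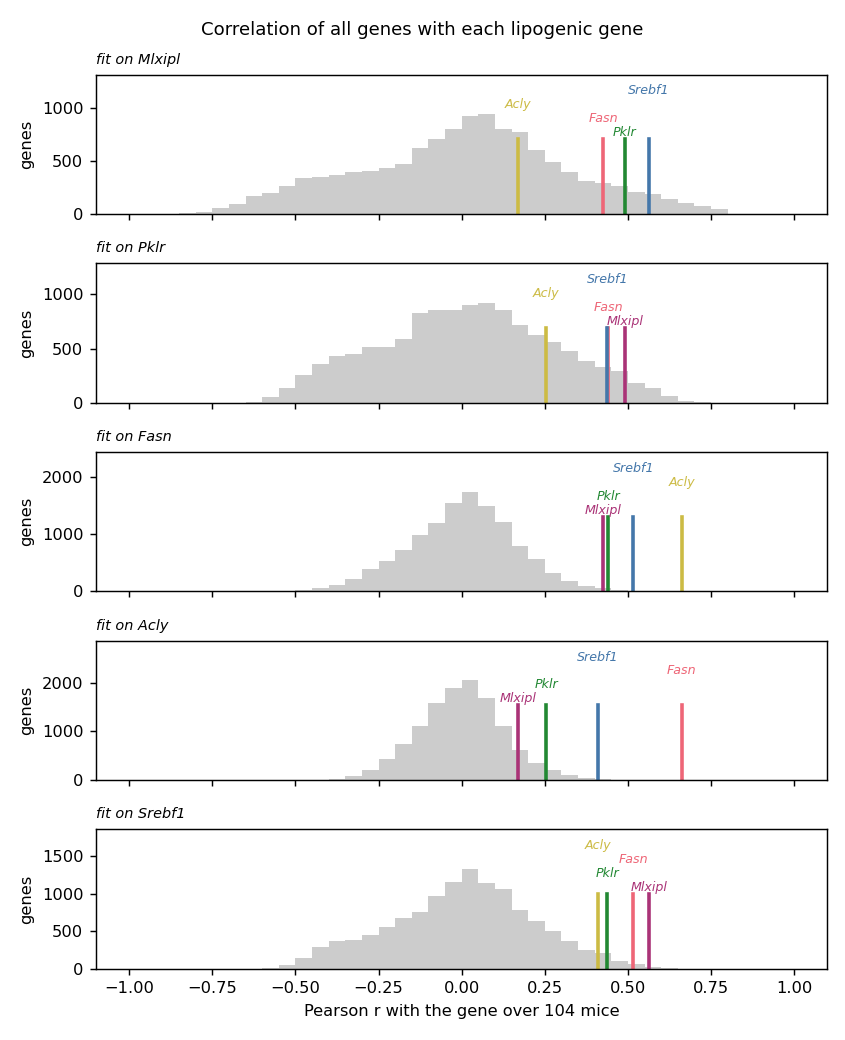
Number of genes (vertical axis) at each Pearson r (horizontal axis) with each of the 5 genes over 104 mice, with the other 4 drawn as lines. All genes spread wide around Mlxipl and narrow around Acly, where Fasn stands apart at 0.66.

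The genes named next were taken among those that passed and had the same sign of r on both sets of arrays. None of the 10 highest with Mlxipl was on the list of fatty acid synthesis. Ptprd, a receptor phosphatase, led with r = 0.86 (rho = 0.75, limma adjusted p = 1.23e-28), 0.89 on the 86 arrays and 0.75 on the 18. Ppara, the fatty-acid receptor that drives oxidation, gave 0.82, as did the cytochrome Cyp2d13. Then came Afm and Abcb11, an albumin relative and the bile salt export pump, and Tmbim6, all at 0.80. Adra1b, an adrenergic receptor, Mbl2, a lectin of the complement system, and Klkb1, plasma kallikrein, gave 0.80 each, and the glucagon receptor Gcgr gave 0.79. Afm spread 6.66-fold over mice and Cyp2d13 5.09-fold, wider than Mlxipl itself. The 5 lowest with Mlxipl were the histone gene H3c8 (-0.84), the RNA cyclase Rtca and the ribosomal stalk gene Rplp0 (-0.82 each), and Bzw2 and Trmt6 (-0.82 each). Rank correlations were lower throughout, between 0.58 and 0.76 for the 10 genes with positive r.

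The 6 highest with Pklr had mixed roles. Khk, ketohexokinase, which starts fructose breakdown, came first with r = 0.73 and rho = 0.72 (limma adjusted p = 2e-14), followed by Snx9 at 0.72 and the glycogen branching enzyme Gbe1 at 0.71. Rbpms2 gave 0.71, Aco1, the cytosolic aconitase, 0.70, and Slc25a1, the carrier that brings citrate out of mitochondria, 0.70. Khk also correlated with Mlxipl (0.65) and Fasn (0.40), and less with Acly (0.21, adjusted p = 0.29). The 3 lowest were 2610001J05Rik (-0.70), the arginine methyltransferase Prmt1 and the ribosomal gene Rps25 (-0.61 each).

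Aacs was among the highest genes with both Fasn and Acly. After Acly, the highest with Fasn were Aacs, acetoacetyl-CoA synthetase, which feeds ketone carbon into lipids (r = 0.63, rho = 0.57, limma adjusted p = 2.25e-09), and Mid1ip1, a partner that activates acetyl-CoA carboxylase (0.63, rho = 0.51, adjusted p = 4.11e-09). Lhx6, 4833439L19Rik and Sec31a followed at 0.58, 0.57 and 0.56, and Trnau1ap, Atg12 and Tctex1d2 were lowest at -0.58, -0.56 and -0.56. After Fasn, the highest with Acly were the lamin Lmnb2 (0.54, adjusted p = 2.43e-05), Aacs (0.49, adjusted p = 0.000227), the histone chaperone Nasp (0.46), Pcbp1 and Cdc42ep4 (0.45 each). Mid1ip1 (0.50, adjusted p = 0.000176) would stand above Aacs, but its r was 0.52 on the 86 arrays and -0.0474 on the 18. Lmnb2 went the opposite way with Mlxipl (-0.34, adjusted p = 0.00145). Lowest with Acly were Zfp655 (-0.52), Rab12 (-0.51) and Srxn1 (-0.46).

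The INSIG genes, which hold SREBP back, were among the 9 genes named for Srebf1. Mid1ip1 was highest (r = 0.68, rho = 0.64, limma adjusted p = 1.09e-11), and Insig1, which retains SREBP in the endoplasmic reticulum and is a known SREBP target, was next (0.63, rho = 0.60, adjusted p = 2.42e-09). Insig2, the form whose liver transcript is lowered by insulin, was among the 3 lowest (-0.61, rho = -0.64, adjusted p = 5.73e-09). The INSIG genes thus lay on opposite sides of Srebf1, and Insig2 held on both sets of arrays (-0.63 on the 86, -0.64 on the 18) while Insig1 was 0.68 on the 86 and 0.30 on the 18. Ngef, Ifrd2, Naa60 and Naaladl2 gave 0.61 to 0.62. Hilpda, a lipid droplet protein of fasting and hypoxia, was the lowest of these (-0.65, rho = -0.74) and the proteasome gene Psmd8 gave -0.60. Hilpda was also low with Mlxipl (-0.76) and Pklr (-0.60).

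Most measured genes of fatty acid synthesis were higher with Mlxipl, Pklr and Srebf1. Of the 12 on that list, which holds Fasn and Acly themselves, 9 were higher and 1 lower with Mlxipl, against 23% and 23.6% of all genes. With Pklr 10 were higher and 1 lower (21.9% and 19.9% of all genes), and with Srebf1 9 were higher and 1 lower (13% and 14.6%). With Fasn 4 of 11 were higher and none lower (4.01% and 4.94%), and with Acly 3 of 11 and none (0.999% and 0.698%). The list's median r was 0.44 with Mlxipl, 0.45 with Pklr, 0.41 with Srebf1, 0.19 with Fasn and 0.12 with Acly, while the medians over all genes lay between 0.00105 and 0.0225. With the first principal component removed, 4 of 12 were higher with Mlxipl, 5 with Pklr and 4 with Srebf1, and 4 of 11 with Fasn and 3 with Acly. The medians were then 0.14 with Mlxipl, 0.23 with Pklr, 0.15 with Srebf1, 0.17 with Fasn and 0.11 with Acly, and no difference between the fits was tested.

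The desaturases Fads1 and Fads2, which make polyunsaturated fatty acids, were highest with Mlxipl (r = 0.69 and 0.66), and Slc25a1 gave 0.57. Their rank correlations with Mlxipl were lower, at 0.47, 0.47 and 0.31. Thrsp, a lipogenic coactivator named after its values were seen, was high with Pklr (0.62) and Fasn (0.55) and lower with Mlxipl (0.32). Scd2, a desaturase mostly outside hepatocytes, was the exception: it was lower with Mlxipl (-0.57, limma adjusted p = 2.34e-09), Pklr (-0.48) and Srebf1 (-0.39), and it spread 13.3-fold. Scd2 itself moved with the fibroblast collagen Col1a1 (r = 0.88) and with the adipocyte and macrophage gene Fabp4 (0.77), both looked up after the values of Scd2 were seen, and their part in the result was not tested.

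Scd1, the main liver desaturase and a textbook target of both factors, gave r = 0.0929 with Mlxipl, 0.13 with Srebf1 and 0.0798 with Fasn, and its deposited value was often one it shared. On most arrays its log ratio equalled that of other abundant genes to within 0.0002 on the log10 scale. It shared its value with Pck1 on 87 of 104 arrays and with Alb on 83, and 21 genes in all shared it on at least 52. The median over all genes was 0 arrays, and Mlxipl, Pklr, Fasn, Acly and Srebf1 shared it on none. The r of Scd1 is therefore not read here as a value of Scd1 alone. Without Scd1 the counts above were the same, of 11 or 10 genes.

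**Figure D4:**
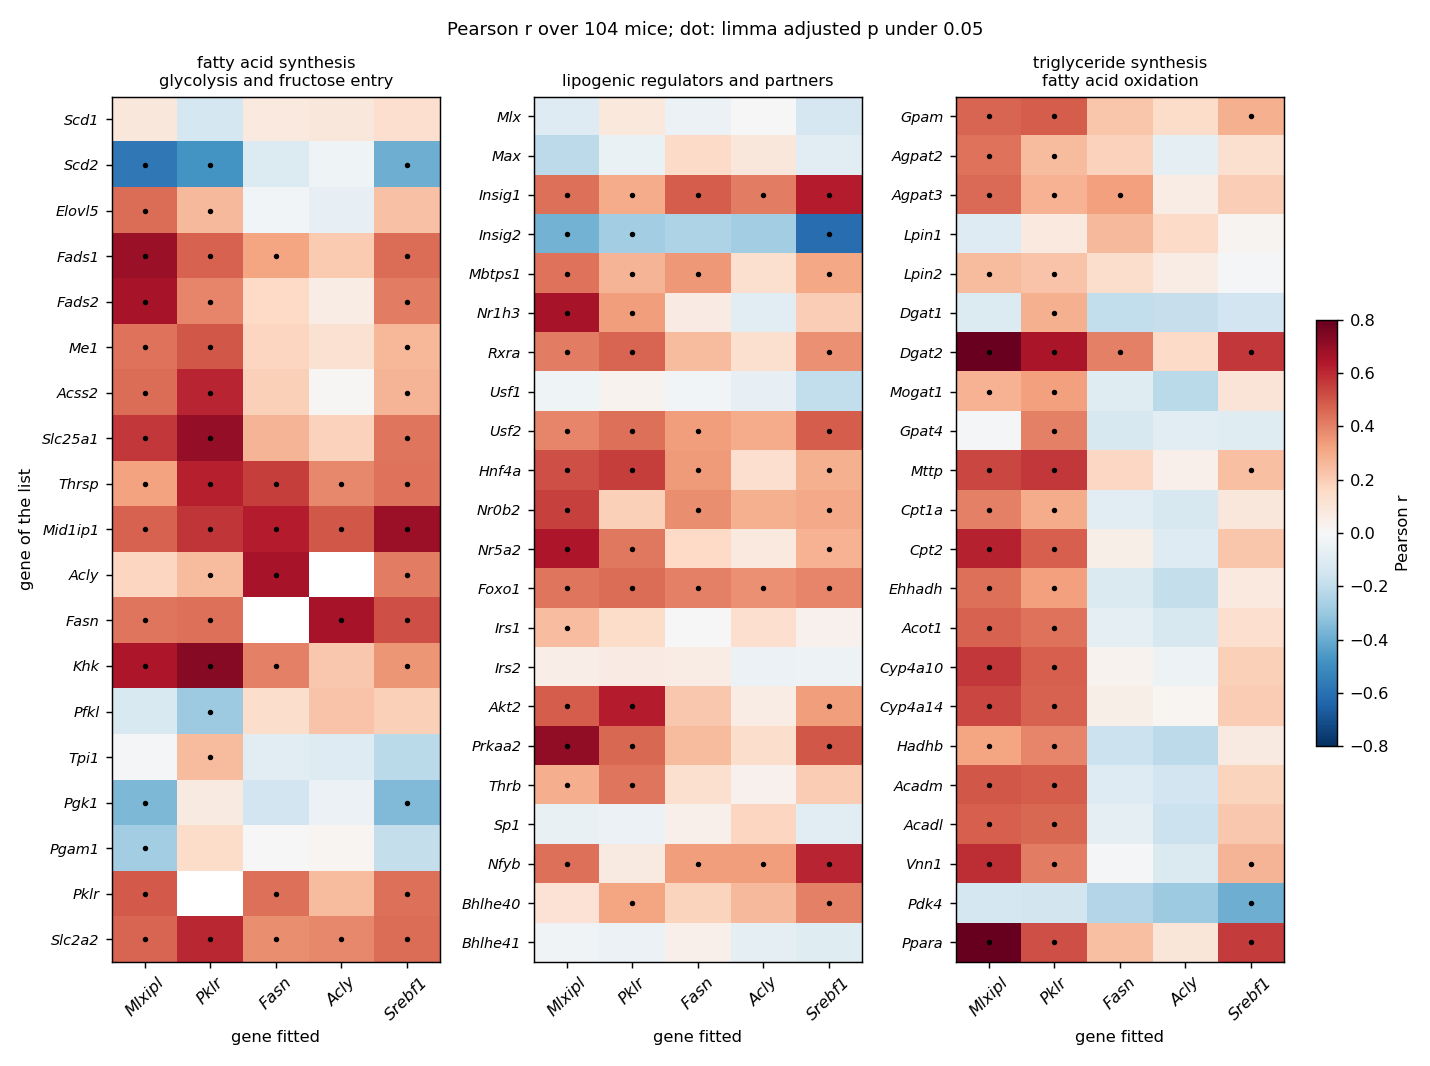
Pearson r (colour) over 104 mice of each pathway gene (rows) with each of the 5 genes (columns), where a dot marks a limma adjusted p under 0.05. The Mlxipl and Pklr columns are filled through synthesis, triglyceride and oxidation genes, whereas the Fasn and Acly columns hold dots for few genes.

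Of 7 measured genes of glycolysis and fructose entry, 3 were higher and 2 lower with Mlxipl, against 23% and 23.6% of all genes. Khk (r = 0.65), Pklr (0.49) and the glucose transporter Slc2a2 (0.46) were higher, and the glycolysis genes Pgk1 (-0.36, limma adjusted p = 0.000644) and Pgam1 (-0.28, adjusted p = 0.0114) were lower. The rank correlations of these genes with Mlxipl were 0.41, 0.37, 0.27, -0.40 and -0.23 in that order. Slc2a2 was also higher with Pklr (0.61), Fasn (0.37), Acly (0.38) and Srebf1 (0.45), although it was -0.18 with Mlxipl on the 18 arrays.

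Known ChREBP targets did not all go with Mlxipl. Of 10 measured targets outside fatty acid synthesis, 7 were higher and 2 lower, with a median r of 0.50, against 23% and 23.6% of all genes. Without the first principal component 4 were higher and 2 lower, with a median of 0.17. Gpd1, which makes glycerol phosphate, gave 0.65, the hormone gene Fgf21 0.54, and Mttp, which loads lipid onto lipoproteins, 0.53. Their rank correlations were lower, at 0.38, 0.26 and 0.32. Gpd1 gave 0.72 on the 86 arrays and 0.0646 on the 18, where Fgf21 and Mttp each gave 0.54. The 2 lower genes were the arrestin relatives Txnip (-0.31, limma adjusted p = 0.00374) and Arrdc4 (-0.23, adjusted p = 0.0423), both glucose-induced targets of the MLX factors. On the 86 arrays 1 was lower, and Arrdc4 gave -0.16 there against -0.63 on the 18. Txnip gave -0.35 on the 86 arrays and 0.0627 on the 18. Over all mice rho was -0.0803 for Txnip and -0.40 for Arrdc4.

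Genes that supply NADPH, the reductant of Fasn, were called about as often as all genes with Mlxipl. Of 7 measured, 2 were higher (Idh1 at r = 0.52 and Me1 at 0.43) and 1 lower (Taldo1 at -0.29), against 23% and 23.6% of all genes, and Rpia gave -0.19 (adjusted p = 0.0898). By rank, Idh1 gave 0.23, Me1 0.36, Taldo1 -0.22 and Rpia 0.21. Tkt, transketolase of the pentose phosphate pathway, named after its values were seen, was 0.46 with Acly (limma adjusted p = 0.00125) and 0.40 with Fasn (adjusted p = 0.0017). It gave -0.13 with Mlxipl (adjusted p = 0.307), the difference was not tested, and on the 18 arrays its r with Acly was -0.0496.

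Among regulators and partners, 14 of 22 were higher and 1 lower with Mlxipl, 12 and 1 with Pklr, 12 and 1 with Srebf1, 7 and 0 with Fasn, and 3 and 0 with Acly. The shares of all genes were 23% and 23.6% with Mlxipl, 21.9% and 19.9% with Pklr, 13% and 14.6% with Srebf1, 4.01% and 4.94% with Fasn and 0.999% and 0.698% with Acly. With the first principal component removed, 9 were higher and 4 lower with Mlxipl, 5 and 0 with Pklr, 5 and 2 with Srebf1, 8 and 0 with Fasn, and 3 and 0 with Acly. The energy sensor subunit Prkaa2 (r = 0.71), the LXR gene Nr1h3 (0.66), the bile-acid regulators Nr5a2 (0.65) and Nr0b2 (0.54) led with Mlxipl. Their rank correlations with Mlxipl were 0.58, 0.29, 0.43 and 0.55 in that order. Insig2 was the 1 lower gene in the fits on Mlxipl (-0.38), Pklr (-0.28) and Srebf1 (-0.61) over all arrays. Mlx, the dimer partner of ChREBP, named after its values were seen, gave -0.10 with Mlxipl (adjusted p = 0.431), and it spread 1.41-fold over mice. Nr1h3 gave 0.20 with Srebf1 (adjusted p = 0.122), and the Srebf1 window printed above held 3 LXR elements. Of the 6 measured LXR targets 4 were higher and 2 lower with Mlxipl, among them Nr1h3 and Srebf1. The other 4 are sterol transporters, of which Abcg8 (0.52) and Abcg5 (0.30) were higher and Abcg1 (-0.40) and Abca1 (-0.24) lower. Without the first principal component 4 of the 6 were higher and none lower.

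Genes of triglyceride synthesis were called higher most often with Mlxipl and Pklr. Of 10 measured genes 7 were higher with Mlxipl, 9 with Pklr, 3 with Srebf1, 2 with Fasn and none with Acly, against 23%, 21.9%, 13%, 4.01% and 0.999% of all genes. Dgat2, which adds the last fatty acid, was highest with Mlxipl (r = 0.79, limma adjusted p = 5.06e-21), then Mttp (0.53), Gpam (0.47) and Agpat3 (0.45). By rank, Dgat2 gave 0.64, Mttp 0.32, Gpam 0.26 and Agpat3 0.32. For Acly the median r was 0.0478. With the first principal component removed, 1 was higher and 2 lower with Mlxipl, 2 and 0 with Pklr, 1 and 2 with Srebf1, 3 and 1 with Fasn, and 0 and 1 with Acly.

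Fatty acid oxidation, the opposing pathway, was also positive with Mlxipl. Of 12 measured genes 11 were higher with Mlxipl and 11 with Pklr, against 23% and 21.9% of all genes. The medians were 0.49 and 0.45, while 2 were higher and 1 lower with Srebf1 and none passed with Fasn or Acly (medians -0.0711 and -0.13). Ppara gave 0.82 (rho = 0.74), Cpt2 0.61 (rho = 0.32), Vnn1 0.59 (rho = 0.36) and Cyp4a10 0.56 (rho = 0.27) with Mlxipl. Rank correlations of the 11 genes with Mlxipl were all lower than r, down to 0.14 for Ehhadh and 0.11 for Hadhb. Pdk4, a fasting gene that blocks glucose oxidation, was the 1 gene not called with Mlxipl (-0.14) and was lower with Srebf1 (-0.39, limma adjusted p = 0.000403). These counts depended on the component shared by many genes: with it removed, 1 was higher and 1 lower with Mlxipl, none passed with Pklr, and 6 were lower with Fasn, 6 with Acly and 8 with Srebf1, where 1 was higher.

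Genes of gluconeogenesis and fasting were called about as often as all genes with Mlxipl (23% higher and 23.6% lower). Of 7 measured, 2 were higher (Pcx at r = 0.53 and Fbp1 at 0.47) and 1 lower (Igfbp1, an insulin-repressed gene, at -0.57), and G6pc gave 0.15 (adjusted p = 0.220). By rank, Pcx gave 0.31, Fbp1 0.13, Igfbp1 -0.52 and G6pc 0.13. Igfbp1 was also lower with Srebf1 (-0.51, limma adjusted p = 2.76e-06) and Pklr (-0.42). Of 11 measured genes of sterol synthesis 3 were higher and 4 lower with Mlxipl, also near those shares, and with the first principal component removed none was higher and 5 were lower. Sqle (-0.60) and Mvd (-0.50) were lower, as were Msmo1 and Dhcr7 (-0.33 each), while Sc5d (0.48), the sterol carrier Stard4 (0.37) and Hsd17b7 (0.26) were higher. With Srebf1, 1 was higher and 2 lower, and the 1 higher was Stard4 (0.60).

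Clock genes of the Per phase varied with Srebf1, whose liver transcript is known to cycle over the day. Of 7 measured genes 6 were higher with Srebf1 and none lower, with a median r of 0.47 against 0.0127 over all genes, of which 13% were higher and 14.6% lower. The output gene Dbp gave 0.56, Tef and Per2 0.52 each, Per3 0.47, Usp2 0.44 and Nr1d2 0.29, and Per1 gave 0.11 (limma adjusted p = 0.462). Of the 4 genes of the opposite phase 2 were lower, Arntl at -0.49 (adjusted p = 5.7e-06) and Clock at -0.36. The labels give no hour of tissue collection, and its part in the result was not tested. With the first principal component removed, 5 of 7 were higher and 2 of 4 lower with Srebf1, and on the 86 arrays 6 and 2. With Mlxipl, 6 were higher, led by Tef (0.52) and Dbp (0.48), and Per1 was lower (-0.23, adjusted p = 0.0484), but with that component removed 1 was higher and 1 lower. With Fasn and Acly none passed (medians 0.11 and 0.14).

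Markers of several other cell types were lower with Mlxipl in these whole livers. Of 9 macrophage markers 8 were lower and 1 higher, against 23.6% and 23% of all genes. Also lower were 5 of 6 neutrophil, 6 of 6 cholangiocyte, 5 of 7 stellate and fibroblast and 5 of 6 T and NK cell markers, with none higher. Cd14 gave r = -0.49, Cd68 and C1qb -0.46, and Clec4f, a Kupffer cell gene, was the one higher (0.40). With Pklr the lower counts were 7 macrophage, 5 neutrophil, 6 cholangiocyte, 4 stellate and fibroblast and 1 T and NK cell markers, against 19.9% of all genes. There 1 macrophage and 1 neutrophil marker were higher, against 21.9% of all genes. With Srebf1 the lower counts were 8, 4, 1, 5 and 0 in the same order, against 14.6% of all genes, and none was called higher. With Fasn 1 marker of these 5 lists passed (Tyrobp, at -0.28), and with Acly none. Few markers of other cell types were called lower with Mlxipl. Of 5 endothelial markers 1 was higher and 0 lower, and of 5 adipocyte markers 1 was higher and 1 lower. Of 6 B and plasma cell markers 0 were higher and 1 lower. The mean log2 ratio of the adipocyte markers still correlated at -0.34 with Mlxipl, against 0.0955 for endothelial and -0.0817 for B and plasma cell markers.

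The counts of the 5 lists that went lower depended on the component shared by many genes. With it removed, 3 macrophage markers were higher and 0 lower with Mlxipl (median r = 0.16 instead of -0.45), 3 stellate and fibroblast and 1 cholangiocyte markers were higher and 0 lower, no neutrophil marker passed, and 2 T and NK cell markers were lower. The T and NK cell count also fell to 3 of 6 without mouse 20, and the rank correlations of those 6 genes with Mlxipl lay between -0.13 and -0.00461. The mean log2 ratio of the macrophage markers ran between -1.82 and 1.49 over mice and correlated at -0.42 with Mlxipl, -0.42 with Pklr, -0.45 with Srebf1, -0.21 with Fasn and -0.17 with Acly. That of the neutrophil markers ran between -2.71 and 2.85 and correlated at -0.51 with Mlxipl, and that of the cholangiocyte markers at -0.45. Of 6 hepatocyte markers, Ttr (0.67) and Apoc3 (0.48) were higher with Mlxipl, and Alb shared the value described above. The part of the other cells in the Mlxipl, Pklr and Srebf1 results was not tested. Skeletal muscle markers were lower with Acly (2 of 6, median r = -0.30) and Fasn (1 of 6, median -0.22), against 0.698% and 4.94% of all genes, and their mean log2 ratio ran between -2.02 and 4.74. Without that component 4 were lower with Acly and 3 with Fasn, where 633 and 1254 of all genes were called in either direction.

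**Figure D5:**
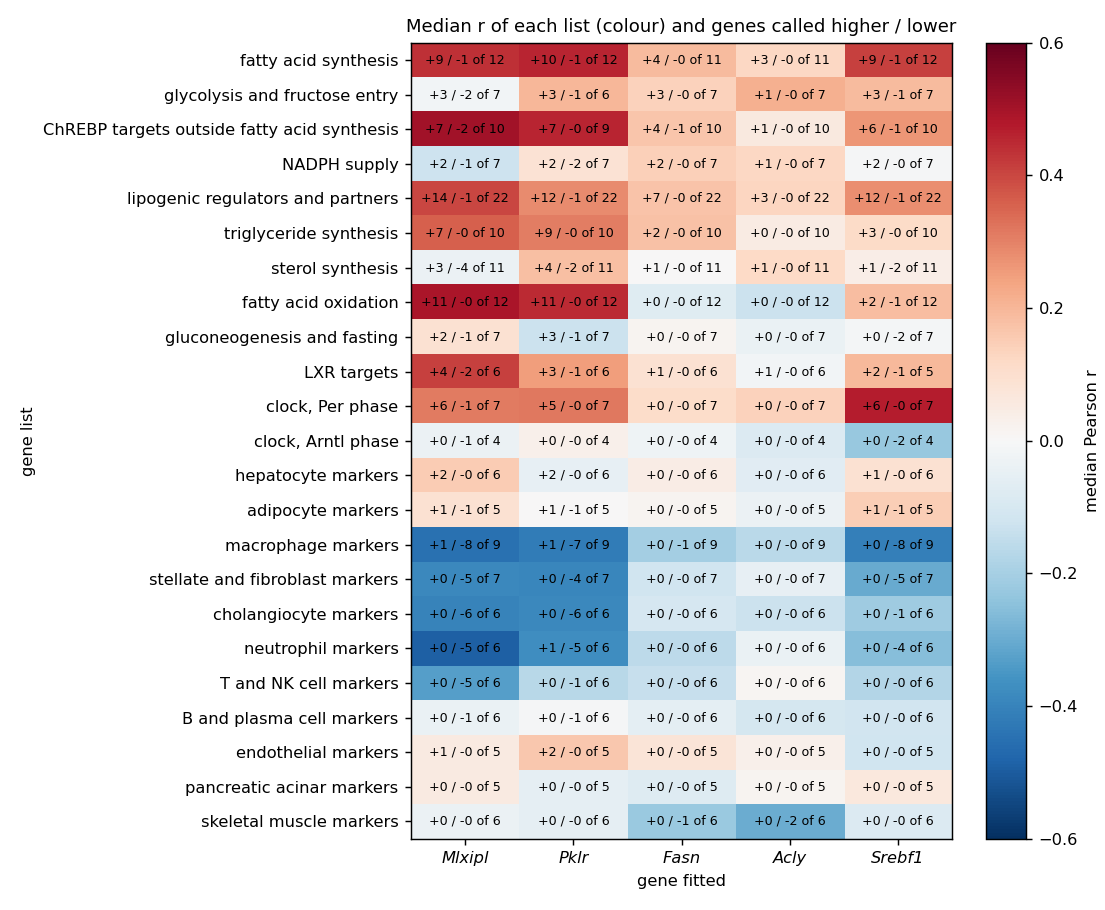
Median Pearson r (colour) of each gene list (rows) with each of the 5 genes (columns), with the number of genes called higher and lower of those measured. Macrophage markers read -0.45 with Mlxipl and -0.16 with Acly, and Per-phase clock genes are highest with Srebf1 at 0.47.

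F2 mice share long chromosome segments, so genes beside a gene can vary with it. Mlxipl lies on chromosome 5, Pklr on chromosome 3, and Fasn, Acly and Srebf1 on chromosome 11. Of genes starting within 5 Mb, 45.4% of 108 were called with Mlxipl, 45.0% of 111 with Pklr, 32.1% of 78 with Srebf1, 11.1% of 99 with Fasn and 1.05% of 190 with Acly, near the shares of all genes given above. Among the nearest 3 on each side, Stx1a (r = -0.53, rho = -0.21) and Dnajc30 (0.38) passed with Mlxipl, Scamp3 (0.30) with Pklr, Rfng (0.42) with Fasn, and Rasd1 (-0.43) and Drg2 (0.36) with Srebf1. None of the 6 beside Acly passed (largest r 0.19, adjusted p = 0.407), in a fit that called 209 genes. The other neighbours were not called.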

How the data were processed

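Liver total RNA of 107 female F2 mice was compared with a common pool on 2-colour arrays, per the labels. The values deposited by the authors are log ratios, read here as log10 because they stop at exactly -2 and 2 (100-fold). The labels name no dye, background correction or normalization. The 3 empty arrays were left out. Values at the limits (1.07%) were treated as not measured, and a further 1.69% were missing. Ratios were converted to log2.

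Of 23536 probes, 20633 were measured on at least 90% of 104 arrays. The platform annotation gave 14744 probes 1 symbol, 18 several and 8774 none, and only the first were used. Symbols were updated through the RefSeq gene table of GRCm38.p6. The 13238 kept probes were averaged to 12315 genes.

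Every gene was fitted on the log2 ratio of each of the 5 genes with limma 3.58.1 in R 4.3.3 (lmFit, eBayes), adjusted by Benjamini and Hochberg over 12314 genes at 0.05. A joint fit held Mlxipl and Srebf1. Pairs had two-sided permutation tests (100000) in numpy 2.4.6. In simulated data of 12314 genes for the fit on Mlxipl, 36 of 100 genes with a true r of 0.3, 97 of 100 with 0.5 and 6 of 12114 unrelated genes were called. The measured fit on Mlxipl called 5740 of 12314 genes, among them Hsd17b7 at r = 0.26. Whether the shares called in the simulation hold for the measured values was not tested. The 5 genes, lists and alternatives were chosen with earlier results of these data known, and so no test was made over a list. P-values rest on the spread between single arrays.

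The text names, for Mlxipl, the 10 genes of highest and 5 of lowest r, for each other gene 6 and 3, among genes past the threshold with 1 sign on both sets of arrays. It also names up to 4 genes of each list with the largest absolute r with Mlxipl, called genes against the list's majority, and the 3 nearest measured genes on each side. Names outside this rule are marked, apart from those given to complete a count. Promoters and chromosomes come from the RefSeq tables, and the labels name no build for the array. Motifs were searched on both strands. Alternatives were the arrays without or only with many limit values, that set as a term, removal of the first principal component, scaled arrays, limits kept, ranks, probes on every array, mouse number as a covariate, other log bases and extreme mice left out.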

Additional observations from a re-analysis of the deposited data

How the results depend on the processing

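Counts of called genes, pairs, joint coefficients and ranges were the same in direction and call, and within 1.5 times for counts, on the 86 arrays alone, with the array set as a term, with limits kept and with probes measured on every array. The 18 arrays with many limit values gave the weakest results: 941 genes with Mlxipl and 0 with Pklr, Fasn, Acly or Srebf1 (1244, 251, 347 and 886 at an unadjusted limma p under 0.05). There the pairs that lost their call had r of 0.227 (Mlxipl with Pklr), 0.267 (Mlxipl with Fasn), 0.531 (Mlxipl with Srebf1), 0.293, 0.238 and 0.218 (Pklr with Fasn, Acly and Srebf1), 0.421 (Fasn with Acly) and 0.0947 (Fasn with Srebf1), and Acly with Srebf1 reversed at -0.379. The joint fit gave 0.134 for Pklr on Mlxipl, and reversed at -0.0576 for Fasn on Srebf1, 0.310 for Acly on Mlxipl and -0.474 for Acly on Srebf1. Ranges were 1.68-fold for Fasn, 1.34-fold for Acly and 2.04-fold for Srebf1. These fits had fewer arrays. With the first principal component removed, counts were 3715 with Mlxipl, 1200 with Pklr, 633 with Acly and 1502 with Srebf1. The pairs that no longer passed were Mlxipl with Pklr (r = 0.186), Pklr with Acly (0.266) and Pklr with Srebf1 (0.265). In the joint fit Pklr on Mlxipl no longer passed (0.0879), and Fasn on Mlxipl now passed (0.269). In the joint fit on scaled arrays, Pklr on Mlxipl (0.162), Fasn on Srebf1 (0.283) and Acly on Srebf1 (0.322) no longer passed. Fasn on Mlxipl passed there at 0.277, and Acly on Mlxipl, not called, changed sign to 0.0210. Ranks gave counts of 649 with Fasn and 41 with Acly. On ranks Mlxipl with Acly passed at 0.281, and Acly with Srebf1 no longer passed at 0.356. In the joint fit Pklr on Mlxipl (0.169), Fasn on Srebf1 (0.0784) and Acly on Srebf1 (0.242) no longer passed. Fasn on Mlxipl passed at 0.359, and Acly on Mlxipl, not called, changed sign to 0.0852. Without the 2 farthest mice, counts were 593 with Fasn (mice 142 and 51) and 454 with Acly (mice 20 and 25). Mlxipl with Acly then passed at 0.332 and Fasn on Mlxipl in the joint fit at 0.268. Acly on Mlxipl, not called, changed sign to 0.0725. Mouse number as a covariate gave 339 genes with Acly. Without mouse 20, an alternative chosen after seeing the data, 361 genes were called with Acly. Mlxipl with Acly then passed at 0.330 and Fasn on Mlxipl in the joint fit at 0.280. Acly on Mlxipl, not called, changed sign to 0.0821. Under a natural logarithm the ranges of Mlxipl, Pklr, Fasn, Acly and Srebf1 would be 1.53, 1.59, 1.65, 1.25 and 1.72-fold, and under base 2 they would be 1.34, 1.38, 1.41, 1.17 and 1.46-fold. Unless said, the cause was not tested. The named genes made 51 entries of a gene in a fit, with Aacs and Mid1ip1 in 2 fits each. All 51 kept their sign under every alternative run. On the 86 and the 18 arrays that was a condition of being named, and all were picked for extreme r, so it is no check. Of these entries 38 lost their call on the 18 arrays, and 1 each with scaled arrays, with ranks and without the farthest mice. No paired analysis was possible because the mice form 1 group. Averaging probes against 1 probe gave no further values, since each of the 5 genes had 1 probe. Signal over background was not analysed here.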

Other observations

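The value that Scd1 held was shared by some genes known to be abundant in liver and not by others. Besides Scd1, the 21 genes that held it on at least 52 of 104 arrays included the secreted proteins Alb, Fgb, F2, Hp, Ambp and Pzp, the lipid carriers Fabp1 and Scp2, the ferritin chain Fth1, the antioxidant gene Gpx1, the ribosomal gene Rps14 and the gluconeogenic gene Pck1. Fabp1 and Pck1 held it on 87 arrays, Gpx1 on 84 and Hp on 70, and Ahsg, just below the bound, on 51, whereas Ttr held it on 1 array and Apoa1, Apoc3 and Arg1 on 0. Scd1 with Alb gave r = 0.988 over mice, against 0.0798 with Fasn and 0.0913 with Acly. This was looked for after the values of Scd1 were seen. The cause was not tested.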
